A study of Mus musculus with 34 samples.

Results

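The genes described here are the chaperones of the cytosol, the mitochondria and the endoplasmic reticulum (ER), followed across cultures of MOSJ-Dkk1 osteosarcoma cells. The 42 genes were listed by name, without a threshold on any value, and form 2 arms, a heat shock arm of 23 cytosolic and mitochondrial heat shock genes from Hspa1a to Fkbp4, and an ER arm of 19 folding and unfolded protein response genes from Hspa5 to Syvn1. The list was chosen with earlier results of these data known, so the shares called in an arm are a description and no independent test. Of the 16576 genes listed for the cultures, 40 were members, 22 of the heat shock arm and 18 of the ER arm. Hspa1a and Calr were not analysed here in the cultures, and 18 members were listed for the tumours.

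RNA was sequenced as 18 culture libraries in 6 groups of 3. MOSJ-Dkk1 is a single red fluorescent mouse osteochondral sarcoma line that carries human Dkk-1, an inhibitor of Wnt signalling, behind the CMV promoter of a pLenti vector, and this holds for every group, controls included. Cultures received DkkMo, a vivo morpholino directed against Dkk-1, or scrMo, its scrambled control, each at 5 µM per the labels (a legend of the study gives another dose), or no morpholino (NT). Each treatment was sampled in log phase, with regular feeding, and under nutritional stress, meaning 48 h of confluence and 4 days in unchanged medium. The labels do not say whether libraries of a group came from separate flasks, so p values measure the spread between libraries, which may be technical. Stressed NT libraries 2 and 3 share a title number and may come from the same culture, although their counts differed by more than sampling noise (chi-square per gene 6.28). In 16 further libraries, perfusion-fixed xenografts of these cells from nude mice, which lack mature T cells, were compared without treatment, after DkkMo, after doxorubicin (DRB) or after both. Mouse Dkk1 and the human cDNA were not analysed here.

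Chaperones bind unfolded proteins and either hold them, refold them or pass them on for degradation. In the cytosol and nucleus, unfolded protein frees the transcription factor HSF1, which binds heat shock elements and drives the Hsp70, Hsp40, Hsp90 and small heat shock protein genes. In the ER, the sensors IRE1, ATF6 and PERK respond to unfolded secretory protein, and ATF6 and spliced XBP1 act on ER stress elements of chaperone and degradation genes, a system used heavily by matrix-secreting bone cells.

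The 2 arms differed in the letters upstream of their genes. RefSeq promoter windows (GRCm38.p6, 250 bases before to 50 after the transcript start) were matched for 34 of the 42 members, 17 in each arm. A pair of inverted heat shock units, GAANNTTC or TTCNNGAA on either strand, lay in the windows of 12 of 17 heat shock genes (70.6%), in 0 of 17 ER genes and in 17.0% of all 27025 gene symbols. Runs of 3 such units in alternating orientation, GAA, TTC and GAA or TTC, GAA and TTC, with any 2 bases between neighbours, contain overlapping pairs. They were found for 4 heat shock genes (Hsph1, Hspd1, Hspe1 and Chordc1) and for 0.662% of all symbols. Hspd1 and Hspe1 are neighbours on opposite strands, so their runs may be the same bases, counted once for each gene. The ER stress element, CCAAT followed after any 9 bases by CCACG, or the shorter element II, ATTGG followed after any 1 base by CCACG, lay on either strand in the windows of 10 of 17 ER genes, in 0 of 17 heat shock genes and in 0.181% of all symbols. The following stretches, written 5′ to 3′ on the strand of the gene with the matched letters in capitals, show the elements of the heat shock genes with the largest changes and of 5 ER genes that hold one. Dnajb9, Xbp1, Sdf2l1 and Pdia4, which are also described library by library below, hold no match in their windows, and neither do Dnajb1, Hspa4, Hspa4l, Ahsa1 and Stip1 of the heat shock arm.
Hspa1b: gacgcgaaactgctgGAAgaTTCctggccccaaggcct
Hspb1: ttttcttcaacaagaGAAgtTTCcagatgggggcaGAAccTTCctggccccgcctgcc
Hspa5: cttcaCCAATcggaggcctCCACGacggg
Hsp90b1: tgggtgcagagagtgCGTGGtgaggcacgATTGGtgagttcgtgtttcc
Creld2: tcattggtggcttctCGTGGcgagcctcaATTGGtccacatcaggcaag
Dnajc3: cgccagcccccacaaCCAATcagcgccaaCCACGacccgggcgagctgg
Herpud1: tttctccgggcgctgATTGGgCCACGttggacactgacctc

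The Hspa1b stretch lies at chr17:34959320-34959357, minus strand, and the Hspb1 stretch, with a pair of elements, at chr5:135887787-135887844, plus strand. Those of the ER genes lie at chr2:34772020-34772048, plus strand (Hspa5), chr10:86705518-86705566, minus strand (Hsp90b1), chr15:88819505-88819553, plus strand (Creld2), chr14:118937812-118937860, plus strand (Dnajc3) and chr8:94386362-94386402, plus strand (Herpud1). All are upstream of the RefSeq start. The Hspa5 stretch falls within the first exon of a longer GENCODE transcript, and the others overlap no GENCODE exon. In Creld2 and Hsp90b1 the ER stress element is read on the opposite strand. A match of letters is a description and does not show that a factor binds there.

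**Figure D1:**
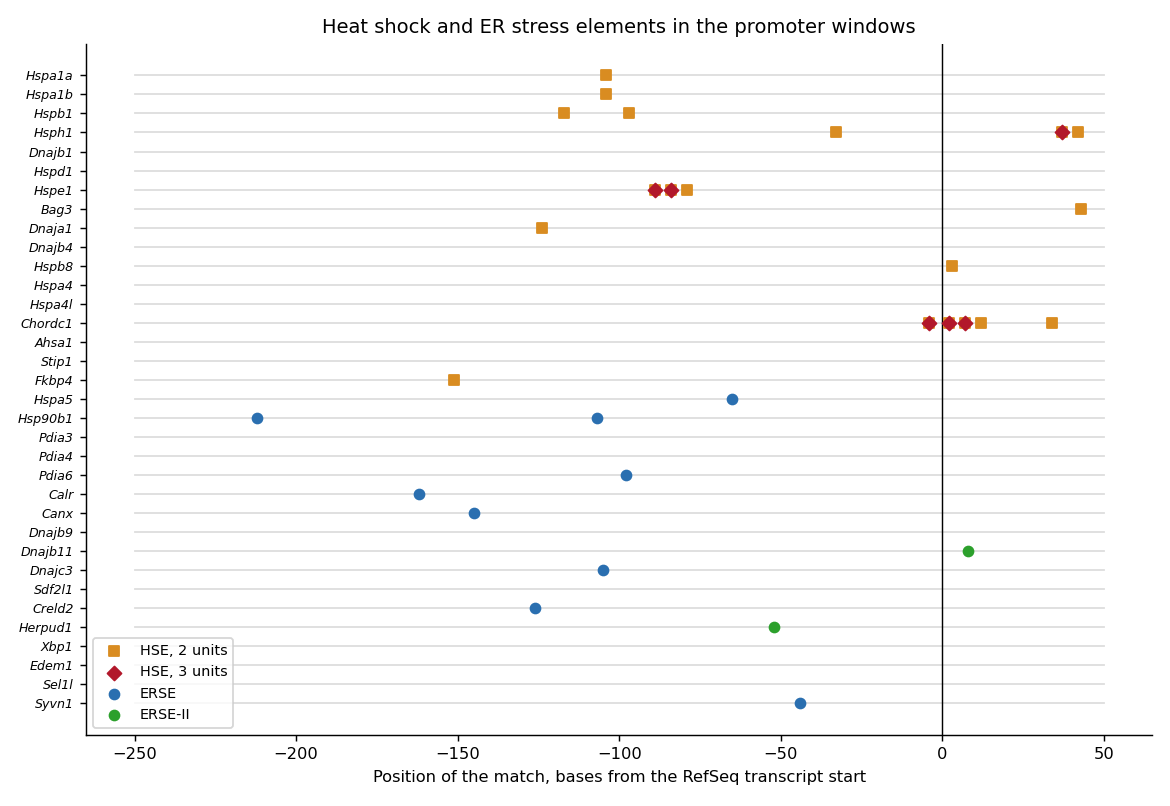
Positions of heat shock elements (HSE) and ER stress elements (ERSE) in the promoter windows of 34 chaperone genes, with the distance of the match from the RefSeq transcript start in bases on the x axis and the first listed window of each gene as a grey line. Heat shock matches lie in windows of the upper 17 genes and ER stress matches in windows of the lower 17; Hspd1 and Dnajb4 have their heat shock match in another window that is not drawn.

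Each culture had 25.9 to 44.8 M reads on listed genes. Unless stated otherwise, values are variance-stabilised log2 read counts as deposited, changes are differences of group means on that scale with their standard error (SE), and normalised counts are reads divided by the size factor of the library. The scale understates changes of genes with few reads. The median log2 value of a library was 9.68 to 9.77 for log phase cultures, and for stressed cultures it was 9.58 to 9.63. Lists of markers were read for the osteoblast and chondrocyte lineage, to which the line belongs, and for other cell types. Of the osteoblast and chondrocyte markers 8 of 11 were listed, Runx2 among them, and their summed normalised count was 117400 to 271700 in log phase and 66030 to 88050 under stress. Of the macrophage markers 5 of 8 were listed (1213 to 2165 in log phase, 2239 to 2556 under stress), and of the endothelial markers Pecam1 and Vwf of 6 (308 to 408 in log phase, 1302 to 1883 under stress). The ranges of log phase and stressed libraries overlapped for skeletal muscle (4 of 10, 1133 to 1336) and erythroid markers (1 of 7, at most 25.6). Single genes of a list did not all move with its sum. Under stress in NT, 5 osteoblast and chondrocyte markers had higher means and 3 lower ones (-3.74 to 1.19). Of the macrophage markers 2 were higher and 3 lower (-0.48 to 1.37), and the 2 endothelial markers changed by 0.06 and 2.50. The part of these differences in the results below was not tested. In bulk RNA, fewer cells of a type and less RNA per cell cannot be told apart.

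Which chaperones respond to nutritional stress was read first in cultures without morpholino. In the heat shock arm, 19 of 22 genes were upregulated under stress, that is, passed limma at a Benjamini-Hochberg adjusted p below 0.05 over all genes and changed by more than 1.5-fold, against 8.22% of the 16562 genes tested. The median change was 1.94 on the log2 scale (0.37 to 4.66), against -0.01 over all genes. In all 22 genes the stressed and log-phase libraries did not overlap, as in 74.6% of all genes. The share of all reads that fell on the 22 genes was 0.944% ± 0.0091 (SD, n = 3) in log phase and 3.29% ± 0.22 under stress. In the ER arm, 2 of 18 genes were upregulated, and the median change was 0.19 (-0.26 to 1.63). Without stressed NT library 2, or without library 3, the counts were again 19 and 2.

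**Figure D2:**
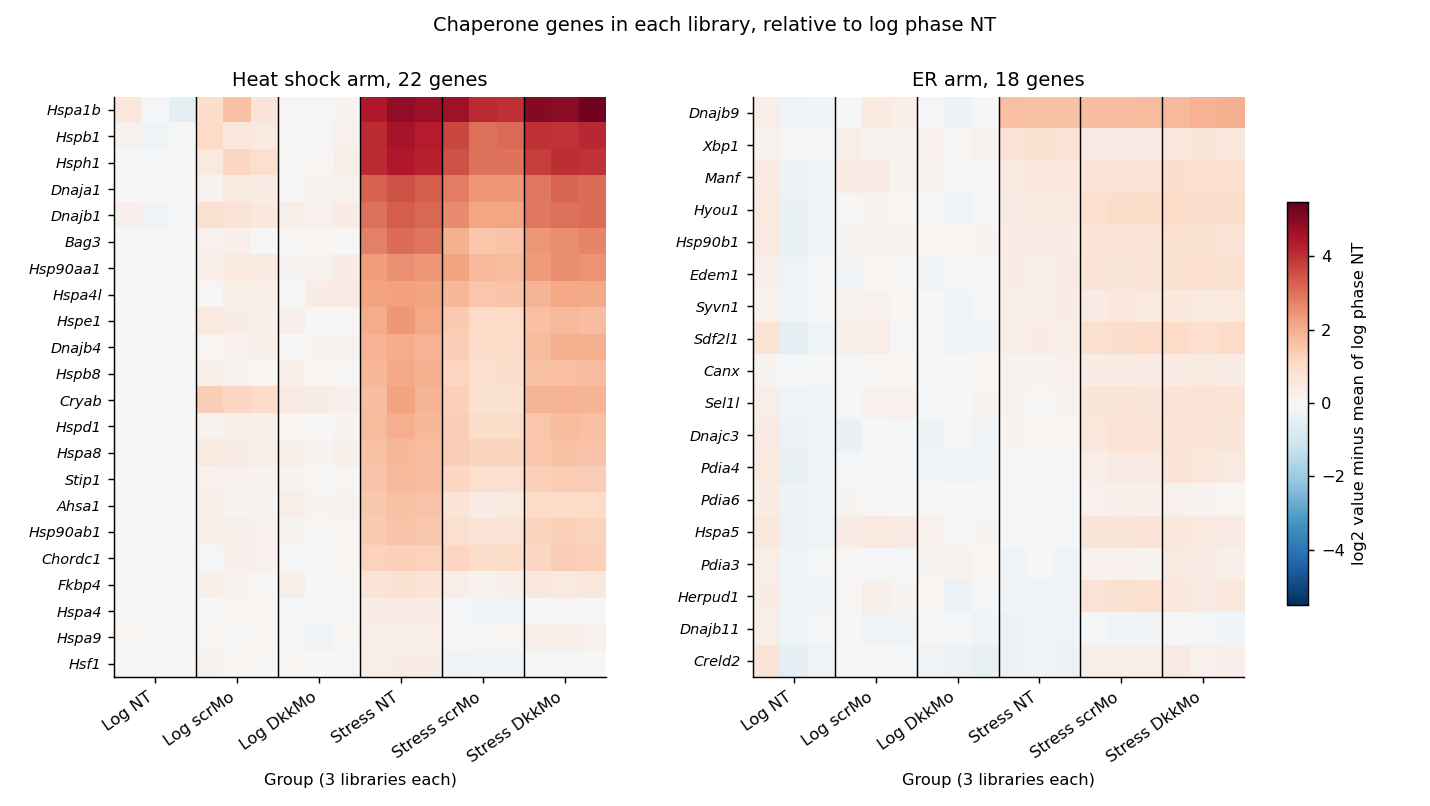
Each column is 1 library, in groups of 3, each row a chaperone gene, ordered by its change under stress in NT, and colour gives the deposited log2 value minus the mean of the 3 log phase NT libraries. The stressed libraries are red throughout most of the heat shock arm, palest in scrMo, whereas in the ER arm the first log phase NT library stands above the other two and the stressed scrMo and DkkMo libraries above stressed NT.

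The inducible Hsp70 gene Hspa1b had the largest change of the heat shock arm. Its normalised counts in NT were 3004, 1737 and 1206 in log phase and 45650, 62160 and 55600 under stress. On the log2 scale Hspa1b read 11.68, 10.98 and 10.54 in NT, 12.03, 12.66 and 11.78 in scrMo, and 11.15, 10.96 and 11.21 in DkkMo in log phase. Under stress Hspa1b read 15.49, 15.93 and 15.77 in NT, 15.72, 15.15 and 15.09 in scrMo, and 16.11, 16.03 and 16.38 in DkkMo. The stressed libraries of every treatment lay far above all log-phase libraries. Hspa1b rose by 4.66 ± 0.24 in NT, a 25.3-fold change (adjusted p = 2.99e-12). Hspa1b and its neighbour Hspa1a on chromosome 17 are nearly identical, and how reads shared by both were counted is not given in the sources used here, so the value may include reads of Hspa1a.

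The small heat shock protein gene Hspb1, whose product holds unfolded protein for refolding, ranked next. Hspb1 read 11.05, 10.61 and 10.82 in NT, 11.91, 11.40 and 11.33 in scrMo, and 10.88, 10.73 and 11.07 in DkkMo in log phase. Under stress Hspb1 read 14.91, 15.38 and 15.16 in NT, 14.48, 13.87 and 13.93 in scrMo, and 14.84, 14.80 and 14.97 in DkkMo. It rose by 4.32 ± 0.16 (adjusted p = 7.04e-14) in NT. Hsph1, which encodes the Hsp110 nucleotide exchange factor of Hsp70, had a similar change from a higher start. Hsph1 read 12.76, 12.63 and 12.76 in NT, 13.27, 13.84 and 13.59 in scrMo, and 12.80, 12.81 and 13.05 in DkkMo in log phase. Under stress Hsph1 read 16.81, 17.11 and 16.95 in NT, 16.23, 15.70 and 15.71 in scrMo, and 16.53, 16.78 and 16.70 in DkkMo. In NT it rose by 4.24 ± 0.14 (adjusted p = 1.59e-14). For both genes the stressed scrMo libraries were the lowest of the stressed libraries, without overlap with stressed NT or DkkMo.

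Among the Hsp40 co-chaperones, which deliver substrate to Hsp70, Dnaja1 rose by 3.36 ± 0.11, Dnajb1 by 3.16 ± 0.11 and Dnajb4 by 1.96 ± 0.08 in NT. Dnajb1 read 11.48, 11.04 and 11.13 in NT, 12.06, 11.93 and 11.80 in scrMo, and 11.52, 11.47 and 11.64 in DkkMo in log phase. Under stress Dnajb1 read 14.23, 14.53 and 14.38 in NT, 13.80, 13.40 and 13.40 in scrMo, and 14.13, 14.24 and 14.28 in DkkMo. Within each treatment the stressed Dnajb1 libraries lay above those in log phase. Bag3, a co-chaperone that directs Hsp70 clients to autophagy, rose by 2.91 ± 0.10 (adjusted p = 2.63e-14). Bag3 read 11.61, 11.55 and 11.66 in NT, 11.85, 11.89 and 11.60 in scrMo, and 11.65, 11.73 and 11.61 in DkkMo in log phase. Under stress Bag3 read 14.37, 14.66 and 14.53 in NT, 13.55, 13.13 and 13.16 in scrMo, and 14.04, 14.18 and 14.28 in DkkMo. The order of the stressed groups, NT above DkkMo above scrMo, held for Bag3 without overlap of libraries.

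The constitutive Hsp70 gene Hspa8 was among the most abundant transcripts of the arm before stress and still rose. Hspa8 read 15.68, 15.82 and 15.78 in NT, 16.25, 16.15 and 16.08 in scrMo, and 16.08, 15.92 and 16.04 in DkkMo in log phase. Under stress Hspa8 read 17.38, 17.57 and 17.46 in NT, 17.13, 16.98 and 17.00 in scrMo, and 17.28, 17.38 and 17.34 in DkkMo. Its change in NT was 1.71 ± 0.08 (adjusted p = 7.64e-13). Of the cytosolic Hsp90 genes, the inducible Hsp90aa1 rose by 2.39 ± 0.10 and the constitutive Hsp90ab1 by 1.5 ± 0.08 (adjusted p = 3.70e-12). Hsp90ab1 read 16.50, 16.60 and 16.53 in NT, 16.86, 16.84 and 16.76 in scrMo, and 16.70, 16.62 and 16.65 in DkkMo in log phase. Under stress Hsp90ab1 read 17.97, 18.13 and 18.04 in NT, 17.44, 17.25 and 17.28 in scrMo, and 17.76, 17.86 and 17.82 in DkkMo. Per kilobase of exon, the mean normalised count of Hsp90ab1 was 31800 in log phase NT and 90300 under stress, the highest level of the arm in both. On the same per-length scale Hspa8 went from 12830 to 42230 and Hspa1b from 707 to 19430.

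Hsp90 partners rose as well, namely Ahsa1, which activates its ATPase, by 1.56 ± 0.07, Stip1, which couples Hsp70 to Hsp90, by 1.68 ± 0.06, Chordc1 by 1.29 ± 0.09 and the immunophilin Fkbp4 by 0.77 ± 0.07. The mitochondrial chaperonin pair Hspd1 and Hspe1 rose by 1.87 ± 0.09 and 2.19 ± 0.10, while the mitochondrial Hsp70 gene Hspa9 passed the adjusted p with a change of 0.38 ± 0.07, below 1.5-fold. Hspd1 and Hspe1 overlap at their 5′ ends on opposite strands, and as the strandedness of the libraries is not given, reads from the shared bases cannot be told apart. The other 2 genes below 1.5-fold were the Hsp110-type gene Hspa4, at 0.43 ± 0.05, and Hsf1 itself, at 0.37 ± 0.05.

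Transcripts of Hsf1, which encodes the transcription factor of the arm, moved by less than 1.5-fold under stress. Hsf1 read 11.90, 11.83 and 11.90 in NT, 12.08, 11.99 and 11.92 in scrMo, and 12.00, 11.83 and 11.83 in DkkMo in log phase. Under stress Hsf1 read 12.20, 12.28 and 12.26 in NT, 11.66, 11.72 and 11.72 in scrMo, and 11.85, 11.77 and 11.85 in DkkMo. Stressed NT libraries were the highest and stressed scrMo libraries the lowest. The change under stress was 0.37 ± 0.05 in NT, -0.30 ± 0.05 in scrMo and -0.07 ± 0.05 in DkkMo, with adjusted p of 6.00e-06, 0.000115 and 0.293.

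The remaining members were the small heat shock protein genes Cryab and Hspb8, which rose by 1.93 ± 0.12 and 1.95 ± 0.08 in NT, and Hspa4l, another Hsp110-type gene, which rose by 2.23 ± 0.11. Cryab overlaps Hspb2 on the opposite strand, so its value may include reads of that gene. For the same reason the values of Dnaja1, Manf, Pdia3, Pdia6 and Syvn1 may include reads of genes that overlap them.

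In the ER arm the member upregulated most under stress in NT was Dnajb9 (ERdj4), an ER Hsp40 that assists the removal of misfolded protein. Dnajb9 read 11.62, 11.05 and 11.08 in NT, 11.23, 11.77 and 11.63 in scrMo, and 11.15, 10.97 and 11.26 in DkkMo in log phase. Under stress Dnajb9 read 12.92, 12.85 and 12.88 in NT, 12.95, 12.95 and 13.01 in scrMo, and 13.03, 13.16 and 13.20 in DkkMo. All stressed libraries were above all log-phase libraries. It rose by 1.63 ± 0.13 (adjusted p = 1.40e-09) in NT, by 1.43 ± 0.13 in scrMo and by 2.00 ± 0.13 in DkkMo. Xbp1, the transcription factor spliced by IRE1, rose by 0.80 ± 0.07 (adjusted p = 9.88e-09) in NT. Xbp1 read 12.77, 12.45 and 12.47 in NT, 12.90, 12.75 and 12.75 in scrMo, and 12.81, 12.62 and 12.75 in DkkMo in log phase. Under stress Xbp1 read 13.34, 13.42 and 13.34 in NT, 13.02, 12.99 and 13.00 in scrMo, and 13.21, 13.24 and 13.17 in DkkMo. Stressed NT libraries held the highest Xbp1 values and stressed scrMo the lowest of the stressed groups. The table gives one value per gene and does not separate spliced from unspliced Xbp1.

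The head chaperone of the ER, Hspa5 (BiP), showed no such pattern in NT. Hspa5 read 17.07, 16.14 and 16.23 in NT, 16.91, 17.00 and 16.91 in scrMo, and 16.73, 16.41 and 16.64 in DkkMo in log phase. Under stress Hspa5 read 16.36, 16.41 and 16.39 in NT, 17.13, 17.15 and 17.19 in scrMo, and 17.05, 17.00 and 16.94 in DkkMo. The first log phase NT library was near the level of the stressed scrMo and DkkMo libraries, the other two were the lowest of all, and the stressed NT libraries lay between them. The change under stress was -0.09 ± 0.16 (adjusted p = 0.619) in NT, 0.22 ± 0.16 (adjusted p = 0.254) in scrMo and 0.40 ± 0.16 (adjusted p = 0.0331) in DkkMo. The change in NT was 0.20 ± 0.09 without the first log phase NT library, and -0.63, past both thresholds, with quantile normalization. Hsp90b1 (Grp94), the ER Hsp90, changed by 0.42 ± 0.14 (adjusted p = 0.00973) in NT. Hsp90b1 read 16.50, 15.64 and 15.83 in NT, 16.14, 16.17 and 16.18 in scrMo, and 16.11, 16.11 and 16.14 in DkkMo in log phase. Under stress Hsp90b1 read 16.40, 16.42 and 16.41 in NT, 16.72, 16.70 and 16.72 in scrMo, and 16.81, 16.81 and 16.70 in DkkMo. In all treatments the means were higher under stress, but the first log phase NT library read higher than the stressed NT libraries.

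That library stood apart across the whole arm. In 18 of 18 ER genes the first log phase NT library was the highest of its group, with a median of 0.60 above the mean of the other two, while in the heat shock arm the medians of the 3 libraries, each relative to the group mean, were 0.0097, -0.0052 and -0.0074. Single heat shock genes differed more. In normalised counts the first library was the highest for Hspa1b (3004 against 1737 and 1206), Hspb1 (1843 against 1285 and 1528) and Dnajb1 (2565 against 1825 and 1958). It was the lowest for Hspa8 (52040 against 57550 and 55910) and Hsp90ab1 (92700 against 98900 and 94450). Leaving it out moved Hspa1b from 1.09 to 1.40 for scrMo against NT in log phase. The Hspa1b interaction of scrMo and NT moved from -1.50 to -1.81. Without that library, 6 ER genes were upregulated under stress in NT instead of 2. In that fit 18.8% of all genes were called, up and down together, against 8.22% up and 9.9% down with all libraries. The genes added were Manf at 0.79 ± 0.07, Hyou1 at 0.76 ± 0.07, Sdf2l1 at 0.74 ± 0.10 and Hsp90b1 at 0.68 ± 0.07. The median change was 0.35 instead of 0.19. The count of the heat shock arm was 19 of 22 with and without it. The cause was not tested.

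**Figure D3:**
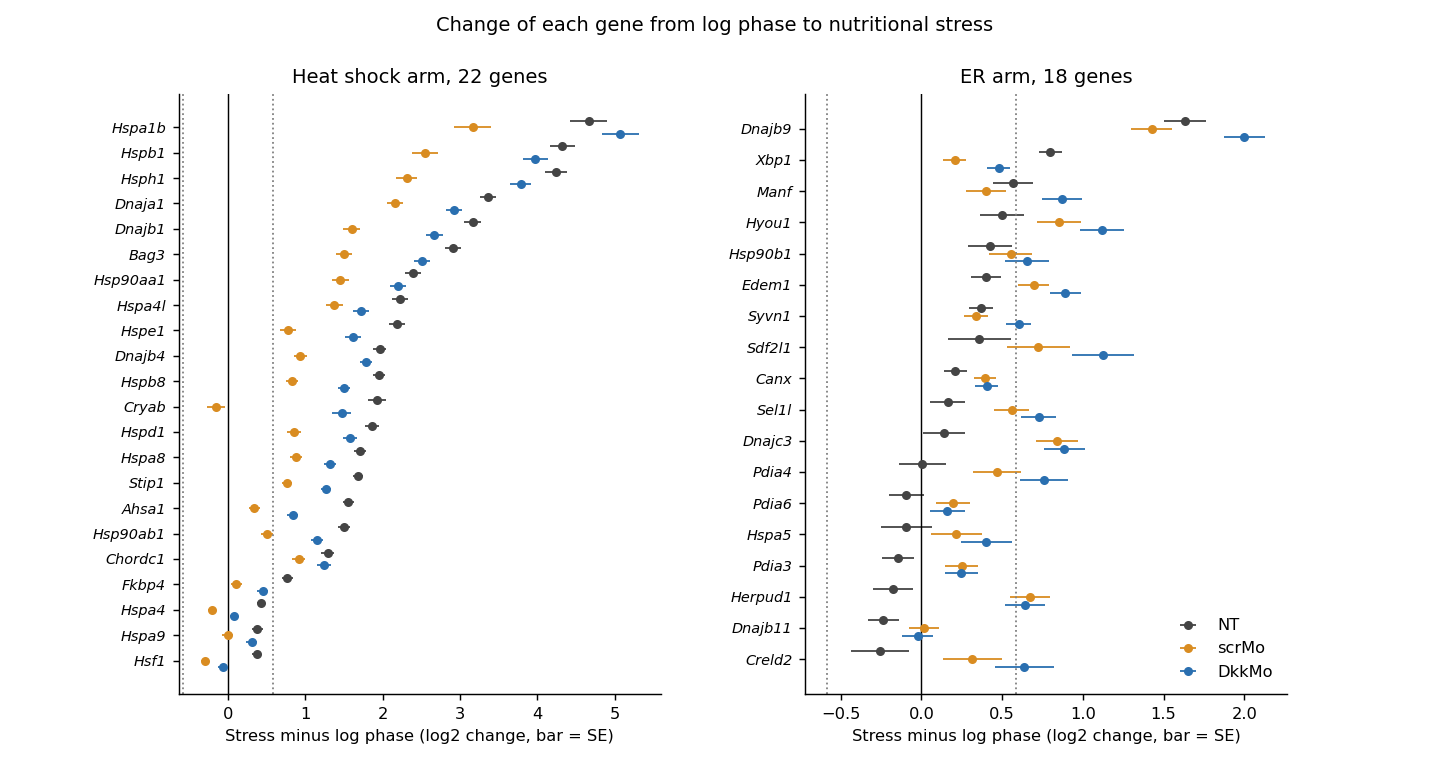
Change of each gene from log phase to nutritional stress in NT (grey), scrMo (orange) and DkkMo (blue), as the log2 difference of group means with its standard error; dotted lines mark 1.5-fold. In the heat shock arm the orange points lie left of the grey in all 22 genes, and in the ER arm grey points lie left of the others in most genes.

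Whether the stress response of the chaperones was the same with a morpholino was read from the change under stress within scrMo and DkkMo cultures. In scrMo, 15 of 22 heat shock genes were upregulated under stress (4.38% of all genes), with a median change of 0.87 (-0.30 to 3.16). In DkkMo, 18 of 22 were upregulated (6.24% of all genes), with a median of 1.54 (-0.07 to 5.07). The same 3 genes led in each treatment. Hspa1b rose by 3.16 ± 0.24 in scrMo and 5.07 ± 0.24 in DkkMo, Hspb1 by 2.55 ± 0.16 and 3.97 ± 0.16, and Hsph1 by 2.31 ± 0.14 and 3.78 ± 0.14.

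Under stress 6 of 18 ER genes were upregulated in scrMo and 12 of 18 in DkkMo, with median changes of 0.44 and 0.65, against -0.01 and -0.01 over all genes. In scrMo the 6 were Dnajb9, Hyou1 (0.85 ± 0.14), Dnajc3 (0.84 ± 0.13), Sdf2l1 (0.72 ± 0.19), Edem1 (0.70 ± 0.09) and Herpud1 (0.67 ± 0.12). In DkkMo the same 6 were joined by Manf (0.87 ± 0.12), Pdia4 (0.76 ± 0.15), Sel1l (0.73 ± 0.11), Hsp90b1 (0.65 ± 0.14), Creld2 (0.64 ± 0.18) and Syvn1 (0.60 ± 0.07). Members not called in any treatment under stress were Hspa5, Pdia3, Pdia6, Canx and Dnajb11, which encode BiP, 2 protein disulfide isomerases, the lectin chaperone calnexin and an ER Hsp40. The share of all reads on the 18 ER genes was 0.976% ± 0.0039 (SD, n = 3) in stressed NT, 1.45% ± 0.023 in stressed scrMo and 1.48% ± 0.055 in stressed DkkMo.

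The difference between treatments in the change under stress was then tested as an interaction. For scrMo against NT, 20 of 22 heat shock genes had a lower change in scrMo past both thresholds, while 5.37% of all genes were called in that direction. The median difference was -1.02 (-2.08 to -0.37) against 0.01 over all genes. The largest differences were those of Cryab (-2.08 ± 0.17, adjusted p = 1.98e-08), Hsph1 (-1.93 ± 0.19, adjusted p = 3.16e-07), Hspb1 (-1.78 ± 0.23, adjusted p = 5.74e-06), Dnajb1 (-1.56 ± 0.16, adjusted p = 3.53e-07) and Hspa1b (-1.5 ± 0.34, adjusted p = 0.00126). The 2 genes not called were Hspa9 and Chordc1.

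Cryab, the αB-crystallin gene, showed the pattern most plainly. Cryab read 11.39, 11.40 and 11.46 in NT, 12.75, 12.53 and 12.41 in scrMo, and 11.87, 11.84 and 11.72 in DkkMo in log phase. Under stress Cryab read 13.11, 13.62 and 13.30 in NT, 12.72, 12.24 and 12.27 in scrMo, and 13.27, 13.31 and 13.27 in DkkMo. In log phase the scrMo libraries were the highest without overlap, and under stress they were the lowest. Cryab changed by -0.15 ± 0.12 (adjusted p = 0.28) from log phase to stress in scrMo, while it rose in NT and, by 1.47 ± 0.12, in DkkMo.

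For DkkMo against scrMo, the interaction was called for 13 of 22 heat shock genes, all with a larger change in DkkMo (0.869% of all genes were called in that direction), and the median difference was 0.70. Hspa1b led with 1.91 ± 0.34 (adjusted p = 0.00052), followed by Cryab (1.63 ± 0.17), Hsph1 (1.47 ± 0.19), Hspb1 (1.43 ± 0.23) and Dnajb1 (1.07 ± 0.16). For DkkMo against NT, 1 of 22 had a lower change in DkkMo (2.38% of all genes did). This was Ahsa1, with a difference of -0.72 ± 0.10 (adjusted p = 4.08e-05), and the median difference was -0.40. Without the fold threshold, 14 of 22 passed the adjusted p, all with a lower change in DkkMo. The share of all genes at that threshold is not given here. Without the first log phase NT library 3 heat shock genes were called, Ahsa1 (-0.69 ± 0.10), Dnajb1 (-0.62 ± 0.15) and Hspe1 (-0.59 ± 0.16). In that fit 3.99% of all genes were called, up and down together. Leaving out any other single library gave 1 or 2 calls in the arm, and quantile normalization 0. Ahsa1 read 11.71, 11.83 and 11.78 in NT, 12.10, 11.94 and 11.93 in scrMo, and 12.12, 11.90 and 11.95 in DkkMo in log phase. Under stress Ahsa1 read 13.25, 13.40 and 13.33 in NT, 12.48, 12.22 and 12.29 in scrMo, and 12.81, 12.82 and 12.86 in DkkMo. The stressed Ahsa1 libraries of the 3 treatments did not overlap one another. The comparisons share libraries with one another and are not independent.

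The ER arm gave fewer interactions. For scrMo against NT, Herpud1 (0.85 ± 0.17, adjusted p = 0.000592) and Dnajc3 (0.70 ± 0.18, adjusted p = 0.00406) had a larger change in scrMo (5.55% of all genes did), and Xbp1 a lower one (-0.59 ± 0.10, adjusted p = 0.000113). The share of the arm called lower, 5.56%, was near the 5.37% of all genes. For DkkMo against NT, 6 of 18 had a larger change in DkkMo (1.53% of all genes did), led by Creld2 (0.89 ± 0.26, adjusted p = 0.0137), Herpud1 (0.82 ± 0.17, adjusted p = 0.00187), Sdf2l1 (0.77 ± 0.28, adjusted p = 0.0434), Pdia4 (0.75 ± 0.21, adjusted p = 0.0107) and Dnajc3 (0.75 ± 0.18, adjusted p = 0.00515), with Hyou1 at 0.62 ± 0.19. Without the first log phase NT library, Herpud1 alone remained called upward in either comparison, at 0.65 ± 0.12 for scrMo and 0.62 ± 0.12 for DkkMo, and Xbp1 was called downward for scrMo at -0.70 ± 0.08. In that fit 11.5% of all genes were called for scrMo and 3.99% for DkkMo, up and down together. For DkkMo against scrMo, 0 of 18 ER genes were called by limma, 1 passed the adjusted p alone and 4 had an unadjusted p below 0.05. Voom, a count-weighted limma fit on the recovered reads, called 1.

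Herpud1, which recruits misfolded protein to the degradation machinery of the ER membrane, had the largest difference of the arm between stressed morpholino and stressed NT cultures. Herpud1 read 12.61, 11.97 and 12.04 in NT, 12.25, 12.51 and 12.34 in scrMo, and 12.31, 11.89 and 12.10 in DkkMo in log phase. Under stress Herpud1 read 12.05, 11.96 and 12.07 in NT, 13.00, 13.03 and 13.08 in scrMo, and 12.77, 12.67 and 12.78 in DkkMo. Stressed scrMo libraries were the highest, stressed DkkMo next and stressed NT the lowest, without overlap.

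The effect of each morpholino was also read within each culture condition. In log phase, 5 of 22 heat shock genes were higher in scrMo than in NT (0.592% of all genes were), namely Cryab (1.15 ± 0.12, adjusted p = 1.08e-06), Hspa1b (1.09 ± 0.24, adjusted p = 0.00206), Hsph1 (0.85 ± 0.14, adjusted p = 0.000151), Hspb1 and Dnajb1 (both 0.72). All 22 means were higher in scrMo (49.6% of all genes were), with a median of 0.26. In the ER arm 0 of 18 genes were called by limma or by voom, 5 had an unadjusted p below 0.05, and Hspa5 had the largest change, 0.46 ± 0.16 (adjusted p = 0.0386). Without the first log phase NT library, Hspa5 (0.76 ± 0.09) and Sdf2l1 (0.62 ± 0.10) were called (2.83% of all genes were, up and down together).

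Between DkkMo and NT no member passed both thresholds in log phase. By limma 0 of 22 heat shock genes and 0 of 18 ER genes were called between DkkMo and NT in log phase (0.827% of all genes were). Of these arms 2 and 0 genes passed the adjusted p alone, 7 and 1 had an unadjusted p below 0.05, and voom called 0 in each. No share of all genes stands beside these looser counts. The medians were 0.11 and -0.04. Against scrMo, DkkMo cultures in log phase had 4 heat shock genes downregulated (0.308% of all genes), Hspa1b by 1.05 ± 0.24 (adjusted p = 0.00304), Cryab by 0.75 ± 0.12 (adjusted p = 0.000153), Hsph1 by 0.68 ± 0.14 (adjusted p = 0.00131) and Hspb1 by 0.65 ± 0.16 (adjusted p = 0.00656). Without the second log phase scrMo library Hsph1 fell by 0.54, below 1.5-fold. In the ER arm 0 of 18 were called by limma or voom and 5 had an unadjusted p below 0.05, Dnajb9 with the largest change, -0.41 ± 0.13 (adjusted p = 0.0244). In log phase the order of group means, scrMo above DkkMo above NT, was found in 18 of 22 heat shock genes and 7 of 18 ER genes. The share of all genes with that order is not given here.

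Under stress the order of the heat shock arm was turned around. Stressed scrMo cultures had 14 of 22 heat shock genes below NT past both thresholds (2.54% of all genes), a median change of -0.74 and all 22 means lower. Over all genes, 49.7% of means were higher in stressed scrMo. Bag3 fell by 1.24 ± 0.10 (adjusted p = 1.98e-08), Hsph1 by 1.08 ± 0.14 (adjusted p = 4.44e-06) and Hspb1 by 1.06 ± 0.16 (adjusted p = 3.42e-05), whereas Hspa1b changed by -0.41 ± 0.24 (adjusted p = 0.168). Hspa8 changed by -0.43 ± 0.08, below 1.5-fold, and Hsp90ab1 fell by 0.73 ± 0.08. The first stressed scrMo library was the highest of its group in 20 of 22 genes, with a median of 0.31 above the mean of the other two, and without it the interaction with NT had a median of -1.13.

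DkkMo cultures under stress had 8 of 22 heat shock genes above scrMo (0.513% of all genes rose), with a median of 0.53 and all 22 means higher (50.5% of all genes were). Bag3 rose by 0.89 ± 0.10 (adjusted p = 4.82e-06), Cryab by 0.87 ± 0.12 (adjusted p = 3.68e-05) and Hspa1b by 0.85 ± 0.24 (adjusted p = 0.0146), followed by Hsph1, Hspb1, Dnajb4, Dnajb1 and Hspb8 (0.64 to 0.79). The call of Hspa1b was lost, with adjusted p of 0.0685, 0.066 and 0.0743, when the third stressed DkkMo, the second stressed scrMo or the third stressed scrMo library was left out. Against NT, 0 of 22 heat shock genes were called in stressed DkkMo cultures by limma (2.66% of all genes were) or by voom. The adjusted p alone was passed by 10, all lower in DkkMo and below 1.5-fold. At an unadjusted p below 0.05 there were 11, all lower in DkkMo, and the median was -0.22. Shares of all genes at these looser thresholds are not given here. The order of group means under stress, NT above DkkMo above scrMo, was found in 20 of 22 heat shock genes. How many of all genes had that order is not given here.

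**Figure D4:**
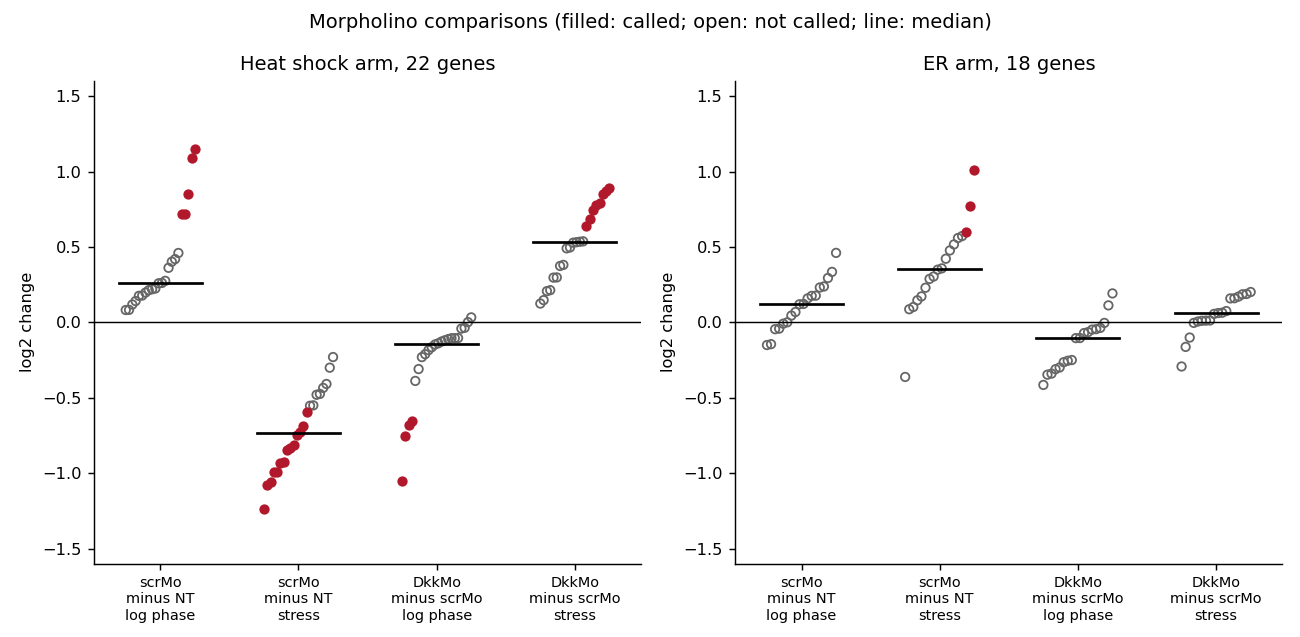
Differences of group means on the log2 scale for each gene of the 2 arms, in log phase and under stress, with each symbol a gene, filled where it passed an adjusted p below 0.05 and 1.5-fold, and the line the median of the arm. In the heat shock arm scrMo minus NT lies above 0 in log phase and below 0 under stress, and DkkMo minus scrMo lies mostly below 0 in log phase and above 0 under stress. Of these 2 differences, only scrMo minus NT under stress has filled symbols in the ER arm. DkkMo minus NT, with 4 called ER genes under stress, is given in the text.

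The ER arm under stress was lowest in NT rather than scrMo, in 17 of 18 genes, without a share of all genes to set beside it. Against NT, 3 of 18 ER genes were upregulated in stressed scrMo (1.9% of all genes rose), Herpud1 by 1.01 ± 0.12 (adjusted p = 2.54e-06), Hspa5 by 0.77 ± 0.16 (adjusted p = 0.000589) and Sdf2l1, an ER chaperone complex member, by 0.60 ± 0.19 (adjusted p = 0.0162), with a median of 0.35. The call of Sdf2l1 was lost with each library centred on its median (0.56) and without the first stressed NT (0.58) or the third stressed scrMo library (adjusted p = 0.0521). In stressed DkkMo the 4 genes above NT (1.12% of all genes rose) were Herpud1 (0.71 ± 0.12, adjusted p = 0.00015), Sdf2l1 (0.66 ± 0.19, adjusted p = 0.0104), Hspa5 (0.61 ± 0.16, adjusted p = 0.00475) and Pdia4 (0.61 ± 0.15, adjusted p = 0.00267), with a median of 0.47. Without the first stressed DkkMo library Hspa5 was at 0.58, below 1.5-fold, and 2 members were called in all, against 7 without the third. Quantile normalization called 12 members in that comparison, and voom 7 ER genes. Between DkkMo and scrMo under stress, 0 of 18 ER genes were called by limma or voom, 2 had an unadjusted p below 0.05, and the median was 0.06 (-0.29 to 0.20).

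In further ER members with called differences between treatments, stressed NT was again the lowest stressed group. Sdf2l1 read 11.79, 10.53 and 10.78 in NT, 11.31, 11.41 and 11.09 in scrMo, and 11.11, 10.81 and 10.88 in DkkMo in log phase. Under stress Sdf2l1 read 11.34, 11.44 and 11.40 in NT, 11.93, 11.99 and 12.07 in scrMo, and 12.14, 11.95 and 12.08 in DkkMo. The stressed NT libraries of Sdf2l1 lay below those of both morpholinos without overlap. Pdia4, a protein disulfide isomerase, differed in the same way. Pdia4 read 14.48, 13.51 and 13.78 in NT, 13.81, 13.96 and 13.87 in scrMo, and 13.77, 13.77 and 13.79 in DkkMo in log phase. Under stress Pdia4 read 13.89, 13.96 and 13.93 in NT, 14.30, 14.37 and 14.37 in scrMo, and 14.67, 14.53 and 14.41 in DkkMo. Its first log phase NT library exceeded all stressed NT libraries. Creld2, a disulfide isomerase-like ER stress gene, showed the same feature. Creld2 read 13.18, 11.96 and 12.29 in NT, 12.51, 12.56 and 12.36 in scrMo, and 12.29, 12.15 and 12.06 in DkkMo in log phase. Under stress Creld2 read 12.18, 12.29 and 12.19 in NT, 12.80, 12.80 and 12.79 in scrMo, and 12.95, 12.71 and 12.75 in DkkMo. Here the first log phase NT library was the highest of all 18.

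Dnajc3 (p58IPK), a co-chaperone of BiP that inhibits PERK, and Hyou1, the ER Hsp110, separated stressed NT from both morpholinos. Dnajc3 read 12.08, 11.29 and 11.49 in NT, 11.26, 11.59 and 11.57 in scrMo, and 11.34, 11.49 and 11.44 in DkkMo in log phase. Under stress Dnajc3 read 11.79, 11.74 and 11.74 in NT, 12.24, 12.35 and 12.35 in scrMo, and 12.35, 12.31 and 12.28 in DkkMo. Stressed NT lay below stressed scrMo and DkkMo without overlap. Hyou1 read 14.14, 13.25 and 13.45 in NT, 13.66, 13.79 and 13.73 in scrMo, and 13.52, 13.39 and 13.53 in DkkMo in log phase. Under stress Hyou1 read 14.07, 14.11 and 14.14 in NT, 14.54, 14.61 and 14.61 in scrMo, and 14.67, 14.56 and 14.56 in DkkMo. The same separation held for Hyou1, and in both genes the first log phase NT library overlapped or exceeded the stressed NT libraries.

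**Figure D5:**
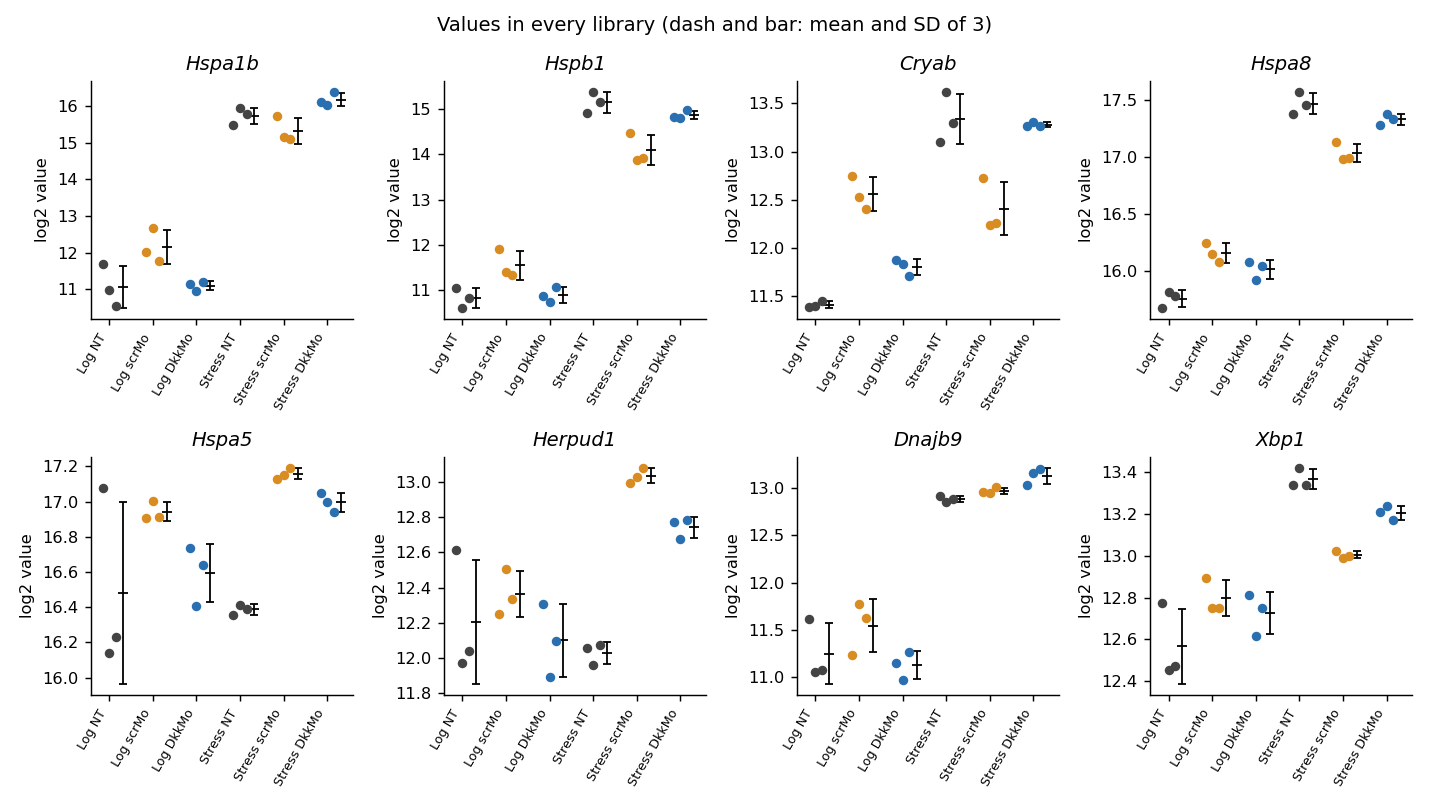
Deposited log2 values of 8 chaperone genes in every library, 3 per group, with the mean and SD of each group beside them. The 4 heat shock genes of the upper row separate by culture condition, except Cryab in scrMo, and in the lower row the first log phase NT library stands above the other two in Hspa5, Herpud1, Dnajb9 and Xbp1.

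Other chaperone and ER lists were read beside all genes, of which 8.22% rose and 9.9% fell under stress in NT. The cytosolic chaperonin and prefoldin list had 3 of 12 genes upregulated under stress in NT, Cct7 by 1.02 and Cct4 by 0.83 leading, and in the same list 5 of 12 had a lower change in scrMo than in NT (5.37% of all genes), Cct7 (-0.87) and Cct2 (-0.75) first. Of 33 other cytosolic co-chaperones 9 rose and 3 fell in NT, with Dnaja4 (2.59), an Hsp40, and St13 (1.40), an Hsp70 partner, rising most and Hspb6 (-1.11) and Hspa12a (-1.08) falling most. Of 16 further mitochondrial chaperones 2 fell, a share near that of all genes, Dnaja3 (-0.71) and Hscb (-0.60).

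Genes of the ER lists moved both ways. Of 26 genes of ER oxidative folding and collagen maturation, 3 rose and 11 fell under stress in NT, against 8.22% and 9.9% of all genes. Serpinh1, the collagen chaperone Hsp47, rose by 1.03 and the oxidoreductin gene Ero1lb by 0.75, while the cyclophilin gene Ppic fell by 1.77 and Qsox2 by 1.03. In the list of stress sensors and the PERK branch, Atf3 rose by 2.58 and Ppp1r15a by 0.67, and Mbtps1 (-0.96) and Trib3 (-0.79) fell, 2 up and 3 down of 15. Ddit3 (CHOP), a late target of PERK, was higher in stressed scrMo than in stressed NT by 1.09 and lower in stressed DkkMo than in scrMo by 0.79. Of 27 glycan-processing and degradation genes 5 rose and 2 fell, led by Ubxn4 (1.31) and Sil1 (-0.81), and of 25 translocon genes 4 rose, with Srp68 (0.92) and Srpr (0.74) first. Apart from the falls in the oxidative folding list, the counts of these ER lists were of 5 or fewer genes.

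In tumours the spread between libraries of a group was far wider than in cultures. Only 18 members were listed, 9 of each arm. Reads on listed genes were 53.8 to 125 M in NT and 85.3 to 106 M in DRB tumours. They were 26.9 to 52.1 M in DkkMo and 28.3 to 41.1 M in combination tumours. The parts of depth and of RNA quality in the fixed tissue in the results for tumours were not tested. With 1 library per tumour, differences between animals and in RNA quality cannot be told apart. In the xenografts of untreated mice Hspa8 had normalised counts of 154, 0.617, 4718 and 124800, and Hsp90ab1 was listed at 0 in 1 of 4 DkkMo, 1 of 4 DRB and 4 of 4 combination tumours, although every cell is known to use it. Against NT, 0 of 18 members and 0 of 12595 genes were called by limma in DkkMo or in DRB tumours, with 3 and 0 members at an unadjusted p below 0.05, and voom called 0 members in each. The median change over all genes was -0.54 for DkkMo and 0.28 for DRB. In combination against DRB tumours, 6.92% of genes and 1 of 18 members were downregulated, a share of members not above that of all genes. The member was Manf, a secreted ER stress protein. Normalised counts of Manf were 960700, 161800, 73080 and 195400 after DRB and 25920, 7817, 42350 and 15540 after the combination, without overlap. Manf changed by -3.49 ± 0.91 (adjusted p = 0.0275), with a median of -0.71 over all genes, and the call was lost under 4 other settings and without DRB tumour 1 or 2 or combination tumour 1, 2 or 4 (adjusted p = 0.0504 to 0.104).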

How the data were processed

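RNA from 18 cultures and 16 tumours was sequenced by the authors as paired-end reads. Per the labels and the submitters' processing notes, reads were aligned to GRCm38 with HISAT2 2.1.0, handled with SAMtools 1.9 and counted with featureCounts of Subread 2.0.0. Strandedness and the treatment of multi-mapping reads are not given in the sources used here. The deposited values are variance-stabilised log2 values made by the authors with DESeq2, separately for cultures and tumours. Reversing the transformation gave whole reads for 100% of culture values and at least 99.977% of tumour values (within 0.05 reads, genes up to 500 reads). Normalised counts are these reads divided by size factors. The last 14 rows of the culture table, which varied by more than 6 within a group, were set aside, leaving 16562 genes; a filter on genes above the lowest value in 3 culture or 4 tumour libraries removed 0.

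Group means were fitted with limma 3.58.1 (R 4.3.3) on the log2 values, all libraries of a set in 1 model, with a variance trend, with Benjamini-Hochberg adjustment across the whole table. A call needed both an adjusted p under 0.05 and more than 1.5-fold change. Counts at an adjusted or unadjusted p alone, orders of group means and ranks of single libraries stand without a share of all genes. The fit was tested on simulated data. Alternatives were voom on the recovered reads, log2(count + 1), quantile normalization, centring on library medians, other filters and fits, and leaving out each library. Tumour libraries held 26.9 to 125 M reads. Gene positions came from GENCODE M21 and promoter windows from RefSeq (GRCm38.p6). No 2 libraries were identical, and within groups the chi-square per gene was 3.03 to 34.8, above 1 for each pair. The members and lists were chosen with earlier results of these data known. Values in every library are given for the 3 largest rises and falls called per arm and comparison, up to 5 interactions per arm, and Hspa8, Hsp90ab1, Hspa5, Hsp90b1, Hsf1 and Xbp1. The supplementary comparisons of the authors were not used.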

Additional observations from a re-analysis of the deposited data

Results flagged for a closer look

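The change under stress differed between treatments by the interaction test for the following genes (log2 values, all past an adjusted p below 0.05 and 1.5-fold). For DkkMo against scrMo the change under stress was larger in DkkMo for Hspa1b (1.91), Cryab (1.63), Hsph1 (1.47), Hspb1 (1.43), Dnajb1 (1.07) and Hsp90ab1 (0.66). For scrMo against NT it was smaller in scrMo for Cryab (-2.08), Hsph1 (-1.93), Hspb1 (-1.78), Dnajb1 (-1.56), Hspa1b (-1.50), Hsp90ab1 (-1.0), Hspa8 (-0.84), Hsf1 (-0.67) and Xbp1 (-0.59), and larger for Herpud1 (0.85) and Dnajc3 (0.70). Xbp1 was the only ER gene called smaller, a share (5.56%) near the 5.37% of all genes. For the next comparison the change under stress is again the one meant. For DkkMo against NT it was smaller in DkkMo for Ahsa1 (-0.72) and larger for Creld2 (0.89), Herpud1 (0.82), Sdf2l1 (0.77), Pdia4 (0.75) and Dnajc3 (0.75).

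In the ER arm Herpud1 and Xbp1 were called also without the first log phase NT library, at 0.65 and -0.70 for scrMo against NT and, for Herpud1, 0.62 for DkkMo against NT. Without it Creld2 (0.54), Dnajc3 (0.52), Pdia4 (0.48) and Sdf2l1 (0.39) fell below 1.5-fold for DkkMo against NT, and Dnajc3 (0.47) for scrMo against NT.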

How the results depend on the processing

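No change of a named gene that was called changed its sign. Values of named genes that were not called changed sign in 21 cases. Counts below are members called, and medians are those of an arm on the log2 scale. Without the fold threshold, counts were 33 (stress in scrMo), 9 and 20 (DkkMo against scrMo in log phase and under stress), 15 and 34 (scrMo against NT), 2 and 23 (DkkMo against NT), and 21 and 24 for the interactions of DkkMo with scrMo and with NT. Dropping that threshold can only add calls over all genes as well, and their share is not given here. Centring each library on its median moved the heat shock and ER medians to 2.1 and 0.34 for stress in NT and to 1.71 and 0.81 in DkkMo, and the heat shock interaction medians to 0.80 (DkkMo against scrMo) and -1.11 (scrMo against NT). Quantile normalization gave 1.80 and 0.0003 for stress in NT, -0.57 and 0.52 for scrMo against NT under stress, -0.023 and 0.65 with 12 calls for DkkMo against NT under stress, -0.88 and 0.52 for the interaction of scrMo and NT, and -0.15 and 0.64 with 11 calls for that of DkkMo and NT. For DkkMo against NT under stress the count was 7 with log2(count + 1) and 7 with voom. The interaction of Xbp1 between scrMo and NT was -0.43 after quantile normalization.

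With single libraries left out, medians for stress in NT ranged from 1.84 to 1.99 (heat shock) and 0.089 to 0.35 (ER). ER medians ranged from -0.0085 to 0.31 for scrMo against NT and -0.15 to 0.13 for DkkMo against NT in log phase, and from 0.094 to 0.45 and 0.21 to 0.55 for the interactions of scrMo and of DkkMo with NT. Of these, 0.35, 0.31, 0.13, 0.094 and 0.21 were the values without the first log phase NT library, -0.0085 that without the second, and 1.84 that without the second stressed NT library. Heat shock medians ranged from 0.46 to 0.65 for DkkMo against scrMo under stress, 0.64 to 0.80 for that interaction and -1.13 to -0.97 for the interaction of scrMo and NT, the largest sizes without the first stressed scrMo library. Counts ranged from 2 to 7 for DkkMo against NT under stress and from 4, without the first log phase NT library, to 10 for the interaction of DkkMo and NT. The ER medians of scrMo and of DkkMo against NT in log phase thus changed sign with 1 log phase NT library left out.

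In tumours, combination against DRB gave 3 calls and medians of -7.31 and -7.30 with log2(count + 1), 0 calls and a heat shock median of -7.71 with voom, 2 calls among genes above the median gene, 10 with only these groups fitted, and 0 with no variance trend, centring or quantile normalization. The main medians were -3.39 and -4.18. Leaving out 1 tumour gave 0 to 4 calls, 4 without DRB tumour 4, and for DRB against NT 0 to 2, 2 without NT tumour 4.

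Same-numbered cultures correlated between -0.059 and 0.624 in their deviations from the group means, over 0.1 in 6 of 18 pairs, and 8 of 18 correlated best with their own number. The largest values were between log phase DkkMo and scrMo, at 0.624 for number 1 and 0.57 for number 3, with -0.049 for number 2. The numbers were not taken as pairs in the main fit, although these libraries may share a source of variation. With the replicate block the counts were 4 and 8 for DkkMo against scrMo, 5 and 0 for scrMo and DkkMo against NT in log phase, 13 for the interaction of DkkMo and scrMo, and 21 and 30 for stress in scrMo and DkkMo, as without it. Stressed NT could not be blocked, since 2 of its libraries carry number 2. With 3 libraries a group, changes near 1.5-fold are the least certain calls.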

Other observations

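The heat shock element was also read in genes outside the 2 arms, as a description with no test. Of 58 tested genes with 3 alternating heat shock units in a promoter window that were no members, 7 were upregulated and 5 downregulated under stress in NT (12.1% and 8.62%), against 8.79% and 11.5% of 10431 genes without the motif. With a pair of inverted units the shares were 9.5% and 11.2% of 1463 genes. Of 20 genes with an ER stress element outside the arms, 1 was upregulated under stress in NT, 4 in scrMo and 5 in DkkMo, which is 5%, 20% and 25%, against 8.82%, 4.77% and 7% of the genes without one. Within the heat shock arm, the 11 measured genes with a pair of inverted units had a median change under stress in NT of 2.19 (0.77 to 4.66), and the 5 with a window but no match 1.68 (0.43 to 3.16). In the ER arm, the 9 measured genes with an ER stress element had a median of -0.09 under stress in NT and 0.60 in DkkMo, and the 7 with a window but no match 0.36 and 0.76.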
